A study of Mus musculus with 4 samples.

Results

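The genes described here were 10 genes of the circadian clock, Dbp, Tef, Per1, Per2, Per3, Nr1d1, Nr1d2, Arntl, Ciart and Cry2, chosen by their symbols out of 32285 features. All 10 were found, and all 10 passed the minimum of 50 unique molecular identifiers (UMIs, counted transcripts) in every pair of sections. The question was whether the level of these genes differed between the sections that stand for the days of the study. The study followed heterotopic ossification, the growth of bone in soft tissue, in tibial muscle of Nse-Bmp4 mice. In these mice a rat neuron-specific enolase promoter drives a Bmp4 cDNA, so that the transgene is carried by the uninjured control as well as by the injured animals. Spatial transcriptome sections were taken from uninjured tibial muscle (day 0) and from injured muscle on days 1, 3 and 7 (written as dpi, for days post injury), the injury being made with cardiotoxin, a venom toxin that destroys myofibres. All animals were of the C57BL/6 strain and 6 to 8 weeks old. There was 1 section per day, so no p-value was computed, and every interval below covers counting error alone and not the spread between animals. The labels state that 3 tibial muscles were mixed for a group, and how that applies to a single section is not given in the sources used here. The mice were kept under a cycle of equal light and dark, and the hour of tissue collection is not given in the sources used here. Section, animal, day after injury and hour of collection therefore cannot be told apart.

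The circadian clock is a transcriptional loop that runs in nearly every cell, skeletal muscle fibres included. A heterodimer of ARNTL (BMAL1) with CLOCK or NPAS2 binds E-boxes and drives the Per, Cry, Nr1d, Ciart, Dbp and Tef genes, whose PER and CRY products then inhibit the heterodimer. NR1D1 and NR1D2 (REV-ERBs) repress Arntl and Nfil3, so that Arntl and the E-box genes peak in opposite parts of the day.

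The sections held between 2107 and 3032 tissue-covered spots and between 16777832 and 56113066 UMIs, the section at 1 dpi being the shallowest, with a median of 6322 UMIs per spot against 12119.5 to 21029 in the other sections. The 10 clock genes together held 11803, 6155, 12197 and 23506 UMIs at days 0, 1, 3 and 7, or 269.0, 367, 217 and 562 CPM, the UMIs of a gene per 1000000 UMIs of the section. A spot covers several cells, so that fewer cells of a type and less RNA per cell cannot be told apart. All 15 adult myofibre markers were detected in every section and made up 27.4%, 15.0%, 9.18% and 16.1% of UMIs at days 0, 1, 3 and 7. Relative to section totals, trimmed mean of M values (TMM) scaling lowered all log2 ratios to day 0 by 0.21 at 1 dpi, 0.55 at 3 dpi and 0.61 at 7 dpi, and where this or another scaling turned a direction given for a gene, the turned value stands beside it.

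Upstream sequence from RefSeq, on build GRCm38.p6, was found for 9 of the 10 genes in 12 windows, and not for Per2. The 250 bases before each annotated start were searched on both strands for the E-box CACGTG, for the D-box TTATGTAA (reverse complement TTACATAA), which DBP, TEF and NFIL3 bind, and for the RORE core AGGTCA (reverse complement TGACCT), part of the element bound by the NR1D receptors. No motif site overlapped another in these windows. The E-box occurred in 4 of the 12 windows against 6.02% of 32851 windows of the same length, the D-box in 1 against 0.819%, and the RORE core in 2 against 14.0%. Of these, 3 windows are shown, that with the most E-boxes, that with the D-boxes, and that with both an E-box and a RORE core. Capitals mark the motifs.
Ciart, chr3:95882229-95882478, minus strand, with E-boxes starting 116, 58 and 44 bases before the start: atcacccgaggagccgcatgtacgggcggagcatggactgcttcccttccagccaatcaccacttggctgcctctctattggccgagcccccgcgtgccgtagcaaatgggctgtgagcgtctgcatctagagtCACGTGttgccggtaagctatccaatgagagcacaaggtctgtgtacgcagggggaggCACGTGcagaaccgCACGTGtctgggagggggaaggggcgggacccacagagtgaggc
Per3, chr4:151044666-151044915, minus strand, with D-boxes starting 205 and 158 bases before the start: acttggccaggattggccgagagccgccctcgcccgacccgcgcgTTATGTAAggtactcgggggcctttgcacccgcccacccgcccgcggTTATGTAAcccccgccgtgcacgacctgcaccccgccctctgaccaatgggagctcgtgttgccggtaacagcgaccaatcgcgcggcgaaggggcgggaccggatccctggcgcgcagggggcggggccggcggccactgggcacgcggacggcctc
Per1, chr11:69098699-69098948, plus strand, with an E-box starting 166 and a RORE core starting 137 bases before the start: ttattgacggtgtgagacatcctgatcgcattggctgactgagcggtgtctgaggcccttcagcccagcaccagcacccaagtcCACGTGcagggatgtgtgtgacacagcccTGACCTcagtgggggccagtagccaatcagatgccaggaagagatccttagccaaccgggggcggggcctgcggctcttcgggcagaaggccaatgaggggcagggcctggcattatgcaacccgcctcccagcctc
Both Tef windows held an E-box, 127 and 138 bases before their starts, and the Nr1d2 window held a RORE core 77 bases before its start. The windows of Arntl, Cry2, Dbp and Nr1d1 and that of the other Per1 start held no exact match to these motifs. Variants of the motifs and bases outside the windows were not searched, so a window without a match does not show that the gene lacks a site. A match is a description of the letters and was not tested as a binding site.

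Dbp and Tef encode PAR-domain basic leucine zipper factors that carry the clock's rhythm to other genes through D-boxes. Dbp was measured at 9.05 CPM (397 UMIs) in the uninjured section, 63.7 CPM (1068 UMIs) at 1 dpi, 8.00 CPM (449 UMIs) at 3 dpi and 96.6 CPM (4041 UMIs) at 7 dpi. The sections at 1 and 7 dpi were thus high and the uninjured and 3 dpi sections low, with no overlap of their counting intervals between these pairs. The log2 ratio to day 0 was 2.81 (95% interval 2.65 to 2.98) at 1 dpi, -0.18 (-0.38 to 0.02) at 3 dpi and 3.42 (3.27 to 3.57) at 7 dpi. Tef was measured at 90.9 CPM (3986 UMIs), 91.1 CPM (1528 UMIs), 47.5 CPM (2663 UMIs) and 184 CPM (7697 UMIs) at days 0, 1, 3 and 7. It shared with Dbp the highest level at 7 dpi and the lowest at 3 dpi, but at 1 dpi it was level with the uninjured section (log2 ratio 0.003, interval -0.083 to 0.089, and -0.20 under TMM scaling). The highest section exceeded the lowest 12.1-fold for Dbp and 3.88-fold for Tef. Dbp shares 741 bases of its annotated span with Sphk2, and whether counting used the strand is not given in the sources used here.

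Per1, Per2 and Per3 encode the period proteins and Cry2 a cryptochrome, the inhibitory arm of the loop. Per2 was measured at 4.42 CPM (194 UMIs), 7.09 CPM (119 UMIs), 2.41 CPM (135 UMIs) and 20.1 CPM (841 UMIs) at days 0, 1, 3 and 7. Per3 was measured at 3.62 CPM (159 UMIs), 7.87 CPM (132 UMIs), 2.09 CPM (117 UMIs) and 21.8 CPM (912 UMIs) on the same days. Both genes were highest at 7 dpi, next at 1 dpi and lowest at 3 dpi, and all neighbouring sections in that order differed beyond counting error. At 7 dpi their log2 ratios to day 0 were 2.19 (1.96 to 2.42) and 2.59 (2.34 to 2.84), and at 3 dpi -0.88 (-1.21 to -0.55) and -0.80 (-1.16 to -0.44). Cry2 took the same order, with 15.8 CPM (695 UMIs), 28.3 CPM (475 UMIs), 10.9 CPM (612 UMIs) and 37.8 CPM (1580 UMIs) at days 0, 1, 3 and 7. Its excess at 7 dpi over 1 dpi was small (log2 ratio 0.42, interval 0.27 to 0.57) and turned to -0.03 with median-ratio size factors. Per1, which also responds directly to glucocorticoid and other acute signals, stood apart from these genes. It was measured at 50.9 CPM (2232 UMIs), 50.4 CPM (845 UMIs), 60.1 CPM (3372 UMIs) and 48.9 CPM (2046 UMIs), a range of 1.23-fold with its highest level at 3 dpi, where the other 3 genes were lowest. Its log2 ratio at 3 dpi to day 0 was 0.24 (0.16 to 0.32) on section totals but -0.31 under TMM scaling, so that no direction for Per1 at 3 dpi held over the scalings.

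Nr1d1 and Nr1d2 encode the REV-ERB nuclear receptors that repress Arntl, and Ciart encodes CHRONO, a repressor of the ARNTL and CLOCK heterodimer. Nr1d1 was measured at 34.1 CPM (1494 UMIs), 74.7 CPM (1253 UMIs), 45.5 CPM (2554 UMIs) and 43.0 CPM (1800 UMIs) at days 0, 1, 3 and 7. Over whole sections it was highest at 1 dpi, with a log2 ratio to day 0 of 1.13 (1.02 to 1.24), and the sections at 3 and 7 dpi did not differ beyond counting error (log2 ratio of 7 over 3 dpi -0.08, interval -0.17 to 0.01, and 0.05 on totals without mitochondrial, haemoglobin and myofibre genes). At 3 and 7 dpi its log2 ratios to day 0 of 0.42 and 0.34 became -0.13 and -0.27 under TMM scaling. Nr1d2 was measured at 32.1 CPM (1407 UMIs), 36.5 CPM (613 UMIs), 18.7 CPM (1047 UMIs) and 96.9 CPM (4052 UMIs), with the order of the Per2 and Per3 levels and not that of Nr1d1. Its log2 ratio to day 0 was 1.59 (1.51 to 1.68) at 7 dpi and 0.19 (0.05 to 0.33) at 1 dpi, the latter -0.02 under TMM scaling. The 2 REV-ERB genes thus took their highest levels in different sections. Ciart was sparse, with 0.798 CPM (35 UMIs), 3.58 CPM (60 UMIs), 1.07 CPM (60 UMIs) and 2.89 CPM (121 UMIs) at days 0, 1, 3 and 7. The sections at 1 and 7 dpi were high and did not differ beyond counting error (log2 ratio of 7 over 1 dpi -0.31, interval -0.76 to 0.17), nor did the low sections at 3 dpi and day 0 (log2 ratio 0.42, interval -0.20 to 1.07, and -0.13 under TMM scaling). Nr1d1 shares 1075 bases of its annotated span with Thra and Ciart shares 3758 with C920021L13Rik, which was listed with 105, 20, 86 and 157 UMIs on the same days, so that their counts are uncertain where reads could have been split between them.

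Arntl encodes BMAL1, the activator of the loop. It was measured at 27.4 CPM (1204 UMIs) in the uninjured section, 3.70 CPM (62 UMIs) at 1 dpi, 21.2 CPM (1188 UMIs) at 3 dpi and 9.94 CPM (416 UMIs) at 7 dpi. The uninjured and 3 dpi sections were high and the 1 and 7 dpi sections low, the reverse of the Dbp and Ciart levels, and all 4 sections differed from each other beyond counting error. The log2 ratio to day 0 was -2.89 (-3.29 to -2.52) at 1 dpi, -0.37 (-0.49 to -0.26) at 3 dpi and -1.47 (-1.63 to -1.30) at 7 dpi, a direction that held under each of the 3 other scalings. Arntl was lowest at 1 dpi, where Nr1d1 was highest over whole sections. It was not lowest at 7 dpi, the section in which Dbp, Tef, Per2, Per3, Nr1d2 and Cry2 were highest. Ciart did not differ between 1 and 7 dpi beyond counting error.

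**Figure D1:**
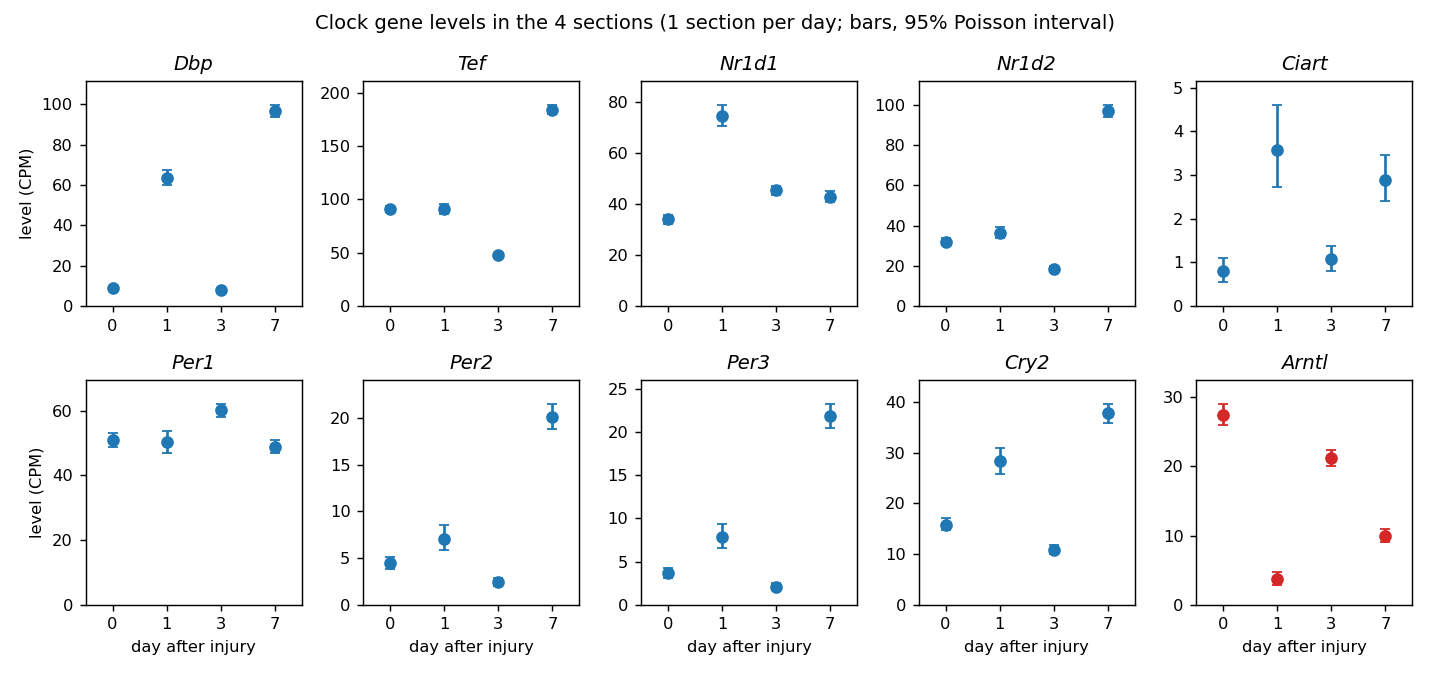
Level of each clock gene in CPM (vertical axes, each starting at 0) against the day after injury (horizontal axes, evenly spaced), with 1 point per section and 95% Poisson intervals as bars, and Arntl in red. Dbp sits at 63.7 and 96.6 CPM at days 1 and 7 and at 9.05 and 8.00 CPM at days 0 and 3, whereas Arntl is highest at days 0 and 3 and Per1 spans 1.23-fold.

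On section totals, 6 of the 10 genes (Dbp, Tef, Per2, Per3, Nr1d2 and Cry2) took the order 7 dpi, 1 dpi, uninjured, 3 dpi from highest to lowest. In that order the Dbp levels of the uninjured and 3 dpi sections and the Tef levels of the 1 dpi and uninjured sections did not differ beyond counting error. Under TMM scaling the log2 ratios of Tef and Nr1d2 at 1 dpi to day 0 turned to -0.20 and -0.02. With size factors that of Cry2 at 7 over 1 dpi turned to -0.03. The highest section exceeded the lowest by a median of 4.84-fold over the 10 clock genes, with 10.5-fold for Per3, 8.36-fold for Per2, 7.43-fold for Arntl, 5.19-fold for Nr1d2, 4.48-fold for Ciart, 3.46-fold for Cry2 and 2.19-fold for Nr1d1. Over all 14716 features with at least 50 UMIs the median was 2.33-fold and the quartiles 1.72-fold and 3.95-fold. The genes were not chosen from these values by the rule, but they were proposed with earlier results of these data known, so the wider range is given as a description.

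Each pair of sections was then compared, with a gene counted as called when it differed at least 2-fold. The shares over all features are those on section totals. No matching share stands beside a count under another scaling, which shifts all features alike. At 1 dpi against day 0, 4 of 10 clock genes were called higher and 1 lower, where 15.8% and 10.4% of 12709 tested features were called higher and lower (26.2% in either direction). Those higher were Dbp, Per3, Nr1d1 and Ciart, and the one lower was Arntl. Under TMM scaling 2 were called higher and 1 lower. At 3 dpi against day 0 none of the 10 clock genes was called in either direction, where 31.9% of 13879 features were called higher and 6.77% lower (38.6% in either direction), but 5 of 10 were called lower under TMM scaling and with size factors. The highest log2 ratio of a clock gene in this pair, 0.42 for both Ciart and Nr1d1, lay below the median of all features, 0.57. At 7 dpi against day 0, 7 were called higher and 1, Arntl, lower, where 29.3% of 13748 features were called higher and 1.42% lower (30.7% in either direction), and under TMM scaling 4 were called higher and 1 lower. The median log2 ratio to day 0 of the 10 genes was 0.76, -0.46 and 1.42 at 1, 3 and 7 dpi, beside 0.16, 0.57 and 0.63 over all features tested.

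The sections after injury differed from each other as well. At 3 dpi against 1 dpi, 1 clock gene, Arntl, was called higher and 5 lower (Dbp, Per2, Per3, Ciart and Cry2), where 18.2% of 13437 features were called higher and 1.71% lower (19.9% in either direction). Under TMM scaling 8 were called lower. At 7 dpi against 3 dpi, 7 were called higher and 1, Arntl, lower, where 13.1% of 14232 features were called higher and 10.3% lower (23.4% in either direction), and the same counts were found under TMM scaling. Only Per1 and Nr1d1 were not called in this pair, with log2 ratios of -0.30 and -0.08. At 7 dpi against 1 dpi, 5 were called higher and none lower (Tef, Per2, Per3, Nr1d2 and Arntl), where 26.0% of 13463 features were called higher and 3.73% lower (29.7% in either direction), and under TMM scaling 4 were called higher and 1 lower. The median log2 ratio was -1.17 at 3 over 1 dpi, 0.81 at 7 over 1 dpi and 1.87 at 7 over 3 dpi, beside 0.40, 0.45 and 0.06 over all features. These comparisons share sections and are not independent of each other.

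**Figure D2:**
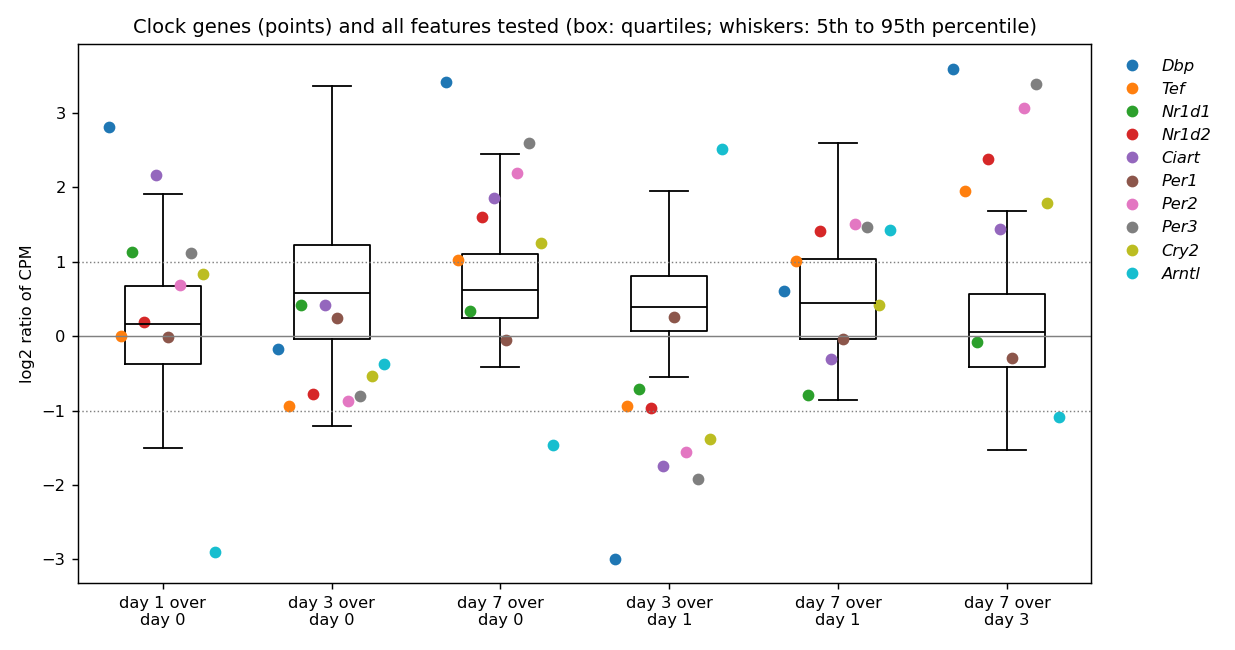
Log2 ratio of CPM (vertical axis) for each of the 6 pairs of sections (horizontal axis), with coloured points for the 10 clock genes and a box with the median and quartiles of all features tested, whiskers reaching to the 5th and 95th percentiles and dotted lines at 2-fold. Arntl lies at -2.89 at day 1 over day 0 and at 2.52 at day 3 over day 1, on the side opposite to Dbp (2.81 and -2.99), and no clock gene passes a dotted line at day 3 over day 0.

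A ratio of UMIs of 2 genes in the same section does not depend on the section's total. The UMIs of Dbp over those of Arntl gave a log2 ratio of -1.60 in the uninjured section, 4.11 at 1 dpi, -1.40 at 3 dpi and 3.28 at 7 dpi. The uninjured and 3 dpi sections thus differed by 0.20 (95% interval -0.03 to 0.42), whereas the 1 and 7 dpi sections lay 5.71 (5.30 to 6.11) and 4.88 (4.66 to 5.10) above the uninjured section. Per1, near flat in CPM, went from 0.89 in the uninjured section to 3.77, 1.505 and 2.30 at 1, 3 and 7 dpi when set against Arntl. Its change of 2.88 at 1 dpi mirrors the log2 ratio of Arntl to day 0, -2.89. All these ratios share Arntl as denominator, so its own change is part of each of them. Over the 9 other clock genes the median difference from the uninjured section was 3.73 at 1 dpi, -0.16 at 3 dpi and 3.06 at 7 dpi. With Clock in place of Arntl these medians were 1.59, -0.54 and 1.56, so that the size, but not the direction at 1 and 7 dpi, changed with the reference. Clock was itself lower at 1 dpi than in the uninjured section (log2 ratio -0.755), so its own change is part of the median there. The 1 dpi values rest on 62 UMIs of Arntl. Whether the sections came from different hours of the day was not tested, since a single section per day offers no reference for the phase.

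**Figure D3:**
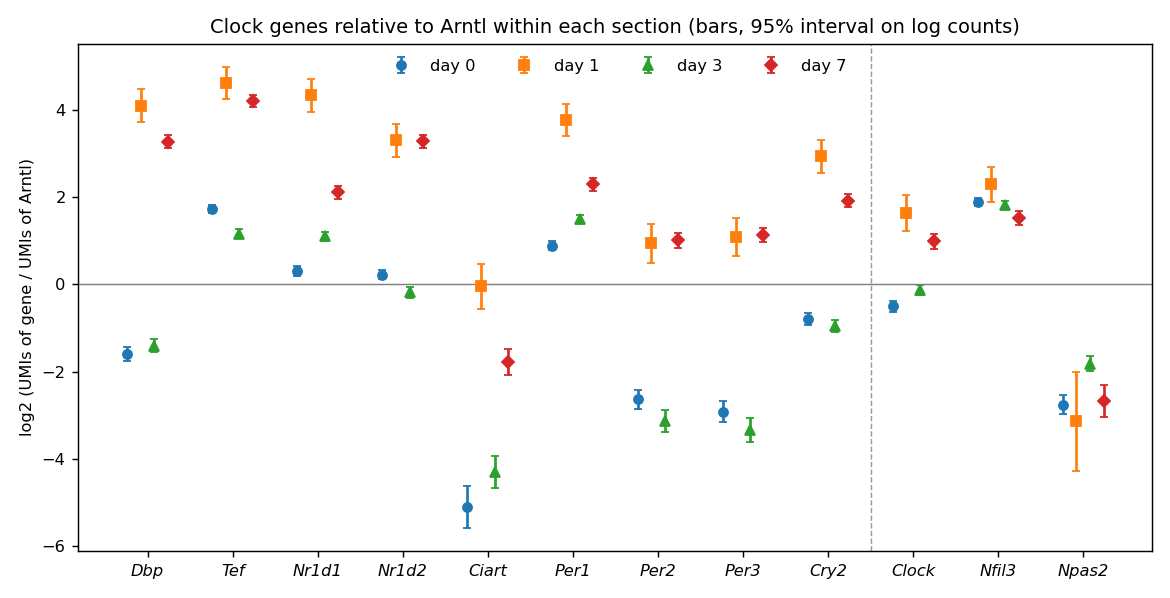
Log2 of the UMIs of each gene over those of Arntl in the same section (vertical axis) for 9 clock genes and, right of the dashed line, Clock, Nfil3 and Npas2 (horizontal axis), by day with 95% intervals on log counts. For Dbp the sections at days 1 and 7 lie at 4.11 and 3.28 and those at days 0 and 3 at -1.60 and -1.40, whereas Nfil3 stays between 1.53 and 2.29.

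Other genes of the loop were read from a list of 13, of which 12 reached 50 UMIs in each comparison with day 0. At 1 dpi none was called higher and 3 lower, at 3 dpi 1 higher and 1 lower, and at 7 dpi 2 higher and 2 lower, with median log2 ratios of -0.02, 0.09 and 0.61. Under TMM scaling the counts at 1 dpi were the same, with 1 higher and 4 lower at 3 dpi, and none higher and 2 lower at 7 dpi. Over all features, on section totals, 15.8% were called higher and 10.4% lower at 1 dpi, 31.9% and 6.77% at 3 dpi, and 29.3% and 1.42% at 7 dpi. Nfil3, which encodes a repressor that acts on the same D-boxes as DBP and is itself repressed by REV-ERBs, was measured at 101 CPM, 18.1 CPM, 74.97 CPM and 28.8 CPM at days 0, 1, 3 and 7. Its log2 ratio to day 0 was -2.48 (-2.65 to -2.31) at 1 dpi and -1.81 (-1.91 to -1.72) at 7 dpi, with the same order of sections as Arntl. Npas2, a partner of ARNTL in place of CLOCK, was measured at 4.06 CPM (178 UMIs), 0.417 CPM (7 UMIs), 5.99 CPM (336 UMIs) and 1.55 CPM (65 UMIs), again high in the uninjured and 3 dpi sections. Clock differed less, with 19.3, 11.4, 19.3 and 19.8 CPM. Cry1, the other cryptochrome, was measured at 18.3, 8.58, 11.3 and 15.5 CPM and was called lower at 1 dpi, while Cry2 was higher there than in the uninjured section. Hlf, the third PAR-domain factor beside Dbp and Tef, was measured at 4.08, 3.93, 1.37 and 10.6 CPM, highest at 7 dpi and lowest at 3 dpi as Tef was. Timeless, also active in DNA replication, was called higher at 3 and 7 dpi, with log2 ratios of 1.57 and 1.498, the latter 0.89 and no longer called under TMM scaling.

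**Figure D4:**
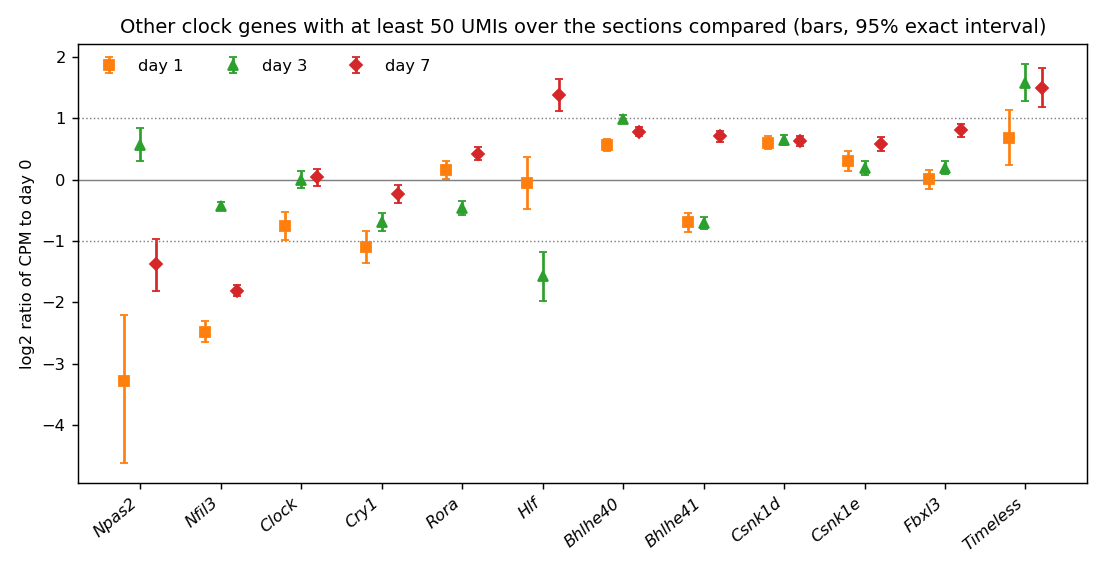
Log2 ratio of CPM to day 0 (vertical axis) for 12 further clock genes (horizontal axis) at days 1, 3 and 7, with 95% exact intervals and dotted lines at 2-fold. Nfil3 lies at -2.48 and -1.81 at days 1 and 7 and at -0.43 at day 3, and Npas2 takes the same sides at days 1 and 7 with wider intervals.

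Known clock-controlled outputs beyond these genes, a list of 6, did not share 1 order. Usp2, a deubiquitinase with strong daily rhythm, was measured at 139 CPM, 92.2 CPM, 39.2 CPM and 151 CPM at days 0, 1, 3 and 7, lowest at 3 dpi as Tef was. Its log2 ratio at 7 dpi to day 0 was 0.12 on section totals and -0.48 under TMM scaling, so that no direction between these sections held over the scalings. Tspan4 and Por were instead called higher at 1, 3 and 7 dpi, with 16.2, 82.6, 105 and 142 CPM for Tspan4 and 22.8, 90.3, 70.8 and 60.0 CPM for Por. The call of Por at 7 dpi, a log2 ratio of 1.40, was lost under TMM scaling (0.79). At 1 dpi 2 of 5 tested outputs were called higher and none lower, at 3 dpi 3 of 6 higher and 1 lower, and at 7 dpi 2 of 5 higher (1 under TMM scaling) and none lower. On section totals the shares over all features called higher on these days were 15.8%, 31.9% and 29.3%, and those called lower 10.4%, 6.77% and 1.42%.

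Signals that can act on clock genes without the clock were read from further lists. Over all features, on section totals, the shares called higher were 15.8%, 31.9% and 29.3% at 1, 3 and 7 dpi. Those called lower were 10.4%, 6.77% and 1.42%. Of 13 glucocorticoid-responsive genes, 5 were called higher and 1 lower at 1 dpi, 3 higher and 3 lower at 3 dpi (5 lower under TMM scaling), and 1 higher and 4 lower at 7 dpi. Fkbp5, a direct glucocorticoid receptor target, was measured at 18.0, 43.7, 30.2 and 25.3 CPM at days 0, 1, 3 and 7, and Tsc22d3, another, at 319, 372, 375 and 336 CPM. On section totals both were lowest in the uninjured section. Under TMM scaling the log2 ratio of Tsc22d3 to day 0 became -0.31 at 3 dpi and -0.53 at 7 dpi. That of Fkbp5 became -0.11 at 7 dpi. Klf15, Klf9 and Zbtb16 of the same list were instead lowest at 3 dpi, Klf15 being measured at 14.2, 12.2, 3.56 and 12.1 CPM. Of 8 immediate early genes, 6 were called higher and none lower on each day after injury (4 at 7 dpi under TMM scaling), Fos being measured at 7.66, 25.8, 81.0 and 38.8 CPM. Of 8 temperature-responsive genes, 5, 5 and 3 were called higher at 1, 3 and 7 dpi and none lower (3, 2 and 0 under TMM scaling, with 1 lower at 7 dpi), and Cirbp, which encodes a cold-inducible RNA-binding protein, was measured at 16.1, 35.7, 33.8 and 45.5 CPM. The part of these signals in the clock gene levels was not tested.

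The makeup of the sections differed too, and it is given beside the clock genes. The summed level of 10 monocyte and macrophage markers was 409, 1597, 8711 and 2086 CPM at days 0, 1, 3 and 7, highest at 3 dpi. The 6 neutrophil markers summed to 1.46, 158, 53.1 and 7.77 CPM, with Ly6g at 0 at days 0, 3 and 7. The 8 markers of fibroblasts and mesenchymal stem cells summed to 5528, 983, 4473 and 15310 CPM, and 7 chondrogenic markers to 7.02, 39.7, 53.9 and 1804 CPM, with Cnmd at 0 at 1 and 3 dpi. The 6 endothelial markers summed to 337, 198, 221 and 315 CPM and 6 adipocyte markers to 923, 1166, 661 and 786 CPM. Each sum can be led by its most abundant genes, and it does not show a mixed change of several cell types. The part of the makeup in the clock gene levels was not tested.

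The sections were also compared within a band of muscle content, over spots that took 10% to 25% of their UMIs from adult myofibre genes. These were 611, 1712, 1672 and 2367 spots at days 0, 1, 3 and 7. Their median share still differed, with 22.6%, 16.3%, 16.4% and 18.7%, so that the band narrowed the difference in muscle content and did not remove it. Within them Dbp was measured at 9.64, 65.7, 9.29 and 100.1 CPM and Arntl at 27.2, 3.69, 23.8 and 8.37 CPM, close to the levels of whole sections. All 10 clock genes took the direction of the whole section at 1 and 7 dpi against day 0, and 9 of 10 at 3 dpi, Per1 being the exception. A class of spots is part of the section it is set against, so such agreement is in part built in. No share of all features keeping their direction is given beside it. In spots with at least 25% from myofibre genes, of which there were 1492, 56, 96 and 182, Dbp was measured at 8.80, 105, 16.5 and 124 CPM. Arntl was at 27.6 CPM there in the uninjured section and had 0 of 476519 UMIs at 1 dpi, for which the 95% Poisson interval reaches 7.74 CPM. In these spots 9 of 10 clock genes took the direction of the whole section against day 0 at 1 dpi and at 7 dpi, but at 3 dpi 5 of 10, with Dbp, Tef, Per1, Nr1d2 and Cry2 the other way (Dbp log2 ratio 0.90, interval 0.08 to 1.63). Nr1d1 was higher there at 3 dpi (105.0 CPM) than at 1 dpi (48.3 CPM), the reverse of the whole sections. Only 4 uninjured spots were below 10%, so no comparison with day 0 was read in that class.

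Dividing each section's spots into 3 equal classes by myofibre share, poorest, middle and richest, gave a class on every day. Dbp was measured from 8.57 to 9.42 CPM over the classes at day 0, from 46.3 to 85.3 at 1 dpi, from 7.25 to 10.9 at 3 dpi and from 79.6 to 112 at 7 dpi. Every class at 1 and 7 dpi thus exceeded every class at day 0 and 3 dpi. Arntl was measured from 27.1 to 27.9 CPM at day 0, from 2.45 to 4.93 at 1 dpi, from 18.9 to 23.3 at 3 dpi and from 6.81 to 14.0 at 7 dpi, with no overlap between the uninjured and 3 dpi classes and those at 1 and 7 dpi. In the direction of the whole section at 3 dpi against day 0 were 9, 9 and 7 of the 10 clock genes in the poorest, middle and richest class. The classes together make up the section, so this agreement too is in part built in. Nr1d1 did not keep 1 order of sections. At 3 dpi it was measured at 16.3 CPM in the poorest, 58.2 CPM in the middle and 91.3 CPM in the richest class, a wider spread within 1 section than between whole sections, while the classes lay at 28.4, 36.5 and 37.3 CPM at day 0 and at 65.5, 98.2 and 59.0 CPM at 1 dpi. Its level was thus higher at 1 dpi than at 3 dpi in the poorest and middle classes and lower in the richest (log2 ratio of 3 over 1 dpi 0.63, interval 0.46 to 0.80). Per1 ran the other way at 3 dpi, with 69.9, 58.3 and 40.7 CPM from the poorest to the richest class. Within the 3 dpi section the poorest class held a median of 2.12% and the richest 20.3% of its UMIs from myofibre genes. Spots are not replicates, and these differences between classes carry no test.

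**Figure D5:**
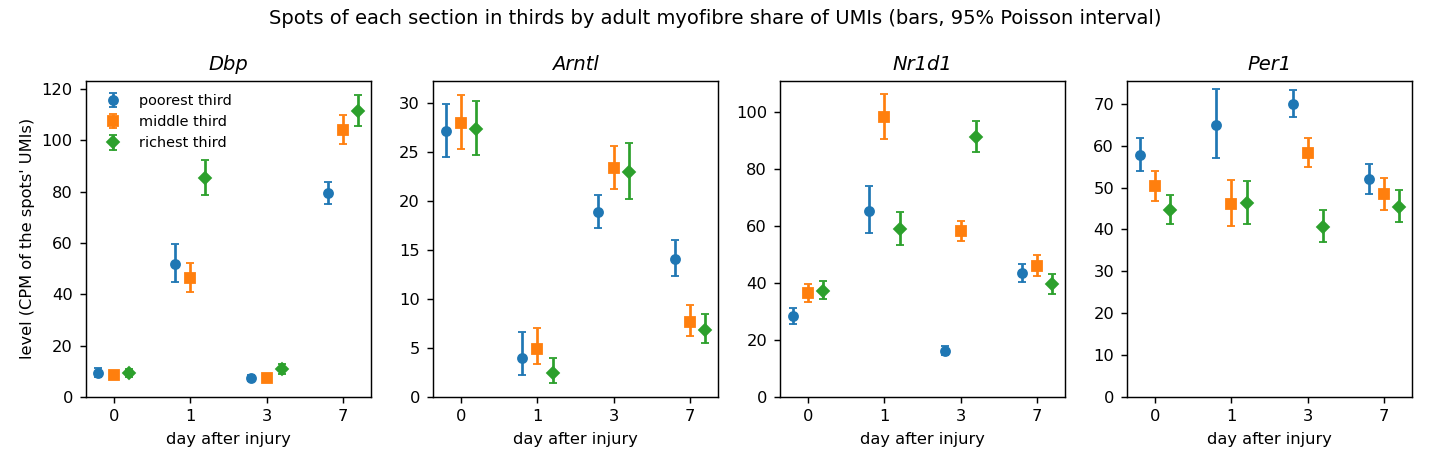
Level in CPM of the summed UMIs (vertical axes, starting at 0) of Dbp, Arntl, Nr1d1 and Per1 against the day after injury, for the spots of each section divided equally into 3 classes by their adult myofibre share of UMIs, with 95% Poisson intervals. Dbp and Arntl separate days 1 and 7 from days 0 and 3 in every class, whereas Nr1d1 at day 3 runs from 16.3 CPM in the poorest to 91.3 CPM in the richest class.

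The share of spots with a UMI was compared after thinning every spot to 2000 UMIs, which left out 17, 513, 9 and 84 shallower spots at days 0, 1, 3 and 7. The expected share for Dbp was 1.88%, 11.7%, 1.84% and 17.4%, against 16.7%, 29.0%, 13.0% and 62.7% of all spots unthinned. For Arntl it was 5.38%, 0.731%, 4.21% and 1.85%, against 39.7%, 2.29%, 30.5% and 11.5% unthinned. The order of the sections was that of the CPM in the thinned shares of both genes, though for both the intervals at day 0 and 3 dpi overlapped. Such a share counts spots with a captured transcript and not cells that express the gene.

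The genes most like Dbp and Arntl over the 3 log2 ratios to day 0 were sought among 12729 features with at least 200 UMIs, by the largest absolute difference in any ratio. For Arntl the nearest was Nfil3 at 0.41, followed by Efr3b at 0.60, Lsmem2 at 0.64, Inpp5j at 0.66 and Nnt at 0.75. Efr3b, for example, was measured at 7.86, 1.25, 7.77 and 4.33 CPM at days 0, 1, 3 and 7, low at 1 dpi as Arntl was. For Dbp no feature came as close, the nearest being Lrmda at 0.84, with 0.456, 1.79, 0.410 and 5.43 CPM, and then Cyp2f2 at 1.02, Smoc1 at 1.13, P2ry10b at 1.18 and Tfcp2l1 at 1.27. Likeness over 3 ratios that share the uninjured section is a description alone.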

How the data were processed

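Spatial transcriptomes of 4 tibial muscle sections, 1 per day, were analysed. The deposited files hold raw UMI counts per gene and tissue-covered spot, which the authors made with Space Ranger. The file headers give version 1.2.0, the methods and labels name other versions, and the submitters' processing notes name the mouse build mm10. Groups were taken from the sample titles. The genes and lists described were chosen with earlier results of these data known. UMIs were summed over spots, and CPM was taken over the section total with exact 95% Poisson intervals. Log2 ratios between sections used all features with at least 50 UMIs over both sections, with exact conditional (Clopper-Pearson) intervals, and a count below 3 UMIs was entered at 3. Genes of 13 lists were read, 1 of them the 10 clock genes, and those named were the clock genes, list genes on which a result turns and, for Dbp and Arntl, the 5 features nearest over the ratios to day 0. For 1 further clock gene, results are not reported here. No test was run, since each day has 1 section. Intervals cover counting error alone. Spots were classed by their share of UMIs from 15 adult myofibre genes (below 10%, 10% to 25%, at least 25%). The sections used 4078 distinct spot barcodes, 1341 in all 4, 1992 in 2 or 3 and 745 in 1. These are array positions, and spots under tissue were taken as filtered by the authors. Other settings were TMM factors (edgeR 4.0.16), size factors (DESeq2 1.42.0), totals without mitochondrial, haemoglobin and myofibre genes, other count minimums and folds, spots with at least 1000 UMIs, other reference genes, other spot classes and other thinning depths. The ratios were tested on simulated data. The work was done in R 4.3.3 and Python 3.11.15, with SciPy 1.17.1 for the intervals, matplotlib 3.10.9 for plots, and pandas 2.3.3 and NumPy 2.4.6 for tables.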

Additional observations from a re-analysis of the deposited data

How the results depend on the processing

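No paired analysis was possible because each day has 1 section and its replicate number is only a name. For the same reason no section could be left out of a group. No alternative reversed a 2-fold difference of a clock gene from day 0. Of 120 single gene values under the scalings and the spot filter, 74 moved beyond their counting interval and 46 did not, the 30 with spots of at least 1000 UMIs among the latter. The median log2 ratio of the 10 genes to day 0 was 0.55, 0.56 and 0.57 at 1 dpi under TMM factors, size factors and totals without mitochondrial, haemoglobin and myofibre genes, against 0.76 on section totals. At 3 dpi it was -1.005, -1.01 and -0.88 against -0.46, and at 7 dpi 0.82, 0.79 and 1.13 against 1.42. The number of clock genes called in either direction at 1 dpi against day 0 was 3, 3 and 3 against 5. At 3 dpi against day 0 it was 5, 5 and 4, and 4 with a 1.5-fold threshold, against 0. At 7 dpi against day 0 it was 5 under both TMM and size factors against 8, and at 7 against 1 dpi 3 with size factors against 5. These scalings differ from section totals by construction in 1 factor per section. They shift all features alike, and no share over all features is given under them or at 1.5-fold. With Clock in place of Arntl, the median difference from day 0 was 1.59, -0.54 and 1.56 at 1, 3 and 7 dpi, and with Npas2 it was -1.10 at 3 dpi, where Npas2 itself was higher than in the uninjured section. The Dbp log2 ratio at 1 dpi over day 0 in spots of intermediate myofibre share was 2.43 with classes of equal size against 2.77, the cause of which was not tested. The share of spots with a Dbp UMI at days 0, 1, 3 and 7 was 16.7%, 29.0%, 13.0% and 62.7% on all UMIs, 0.951%, 5.83%, 0.932% and 9.30% thinned to 1000 UMIs and 3.62%, 22.1%, 3.47% and 31.8% thinned to 4000, always highest at 7 dpi. At each thinned depth the intervals of the shares at day 0 and 3 dpi overlapped, so neither was set as the lowest. Few UMIs limited the values of Arntl, Per2, Per3 and Ciart at 1 dpi, where each had at most 132 UMIs. At 3 dpi, a deeper section, Per2, Per3 and Ciart had 135, 117 and 60 UMIs.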
